A study of Mus musculus with 4 samples.

Results

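The major histocompatibility complex (MHC) and its peptide loading genes were followed at 920 single nucleotide differences (SNPs) between C57BL/6J (B) and DBA/2J (D) mice, out of 305528 SNPs listed over the 4 pools. They were chosen by name, as every listed SNP that the files assign to a gene beginning with H2- or to Tap1, Tap2, Tapbp, B2m, Psmb8 or Psmb9, and no measured value entered the choice. The SNPs lie in 32 of the 11229 listed genes. All are on chromosome 17 (from 34057211 to 37618619 in mm9, the mouse genome build of the files), apart from those of B2m on chromosome 2. Of the 920 SNPs, 301 are exonic and 619 intronic, and 226 exonic SNPs in 29 genes were counted. Of the other 75, 62 lie within 18 bp of a counted SNP of the same exon, and 13 (5 of Tap2, 4 of H2-gs10 and 4 of H2-T3) were counted for a gene that the files list before the member. H2-M3 and H2-T24 were listed at intronic SNPs only, so they and H2-T3 have no counted SNP.

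MHC class I molecules display peptides from inside the cell to CD8+ T cells. Each is a heavy chain, such as H2-K or H2-D, bound to beta 2 microglobulin, and its peptides are cut by the proteasome, carried into the endoplasmic reticulum by the Tap1 and Tap2 transporter and loaded with the help of tapasin (Tapbp). MHC class II molecules are pairs of an alpha and a beta chain that display peptides from outside the cell to CD4+ T cells, mainly on macrophages, dendritic cells and B cells, and adipose tissue holds such cells beside its adipocytes. C57BL/6J carries the b haplotype of this complex and DBA/2J the d haplotype, and the b haplotype is known to make no E alpha chain. The class I heavy chains form a family of close copies, many of them in the Q and T groups.

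Allele counts came from gonadal adipose tissue of chow-fed F1 mice of reciprocal crosses, named with the mother's strain in front. There was 1 RNA pool for each group, in the order BxD female, DxB female and then the BxD male and DxB male groups, of 3, 2, 3 and 3 animals, and the labels give an age of 8 weeks while the study's methods give an older one. Every F1 animal carries 1 B and 1 D haplotype, so each pool gave a B and a D library from the same cells, and the spread between animals of a group was not measured. The pools held 3353668 to 4254813 counted reads, of which D gave 45.7% to 46.9%. Members took 4.72% to 6.16% of the counted reads. For the pools labelled DxB female and BxD male the file names give the other cross and sex, and at 294 X chromosome SNPs, those at which the pool labelled BxD female had reads of both alleles, the B share was 52.5%, 88.4%, 55.9% and 23.8% in the order of the groups above. Over all X chromosome SNPs it was 68.3%, 90.3%, 70.0% and 48.5%. Males carry only the X chromosome of their mother and females both, so the pool labelled DxB female, at 88.4% B, and the pool labelled BxD male, at 55.9%, went against their labels. The comparison of B with D uses neither cross nor sex. Below, values in 4 pools follow this order of the labels.

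The 30 bases around the most counted exonic SNP show what was read in the 3 called genes most in favour of B and the 3 most in favour of D that had at least 10 reads of the weaker allele. For H2-gs10 this SNP, with 1635 B and 3050 D reads, was left out of the gene's sum. Each line gives the plus strand of mm9, which held the B base at all 920 SNPs, with listed strain differences in capitals and the change from B to D counted from the first base.
H2-D1, chr17:35400517-35400546, A16G: gaaagccaagggccaAgagcagtggttccg
H2-gs10, chr17:35517476-35517505, A16G: gagcaggctggtgctAcagagaaaagcaag
H2-DMb2, chr17:34287736-34287765, C16T: ctacactcctctcccCggatccacctaccc
H2-Q8, chr17:35531924-35531953, T16C: gggagcaggctggtaTtgcagagagagacc
H2-Q1, chr17:35562250-35562279, G16C: gccaagggccatgagGagagtttccgagtg
H2-T10, chr17:36256305-36256334, T16G and G26A: gccaggtcagggtgaTgtcagcaggGtaga
In the genome itself, 50-base windows at all 6 of these SNPs match another place within 33057211 to 38618619 of chromosome 17 with at most 3 mismatches, the number the aligner allowed. Such a second place is called a near-copy here.

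Summed over the exonic SNPs of a gene, 9 of the 29 member genes with counts were called different between B and D, that is with an adjusted p under 0.05 by the quasi-likelihood test of edgeR. That is 31.0% of the members, where 17.7% of all 7988 genes were called. B was higher in 6 members (H2-D1, H2-K1, H2-gs10, H2-Q9, H2-DMb2 and H2-T22), against 12.9% of all genes. D was higher in 3 (H2-Q8, H2-Q1 and H2-T10), against 4.84% of all genes. The median log2 D to B ratio was -0.12 over the members and -0.02 over all genes. Of the 9 called genes, 8 carry class I heavy chain names and H2-DMb2 is a class II loading gene. When the B and D libraries of a pool were paired by a block term, 19 members were called (9 with D and 10 with B higher) where 27.2% of all genes were, 11.0% with D and 16.2% with B higher. The 10 added were H2-DMb1, H2-Ea, H2-Eb1, H2-Ke2, H2-Ob, H2-Q10, H2-T23, Psmb8, Psmb9 and Tap1. With the 13 SNPs above counted for the member, 9 of 30 were called (3 with D and 6 with B higher, against 4.82% and 12.9% of all genes), H2-T3 in place of H2-gs10. Without SNPs that have a near-copy, 21 members could be tested and 2 were called, H2-Q2 with B and H2-Q10 with D higher, where 17.5% of all genes were called, 13% with B and 4.5% with D higher.

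**Figure D1:**
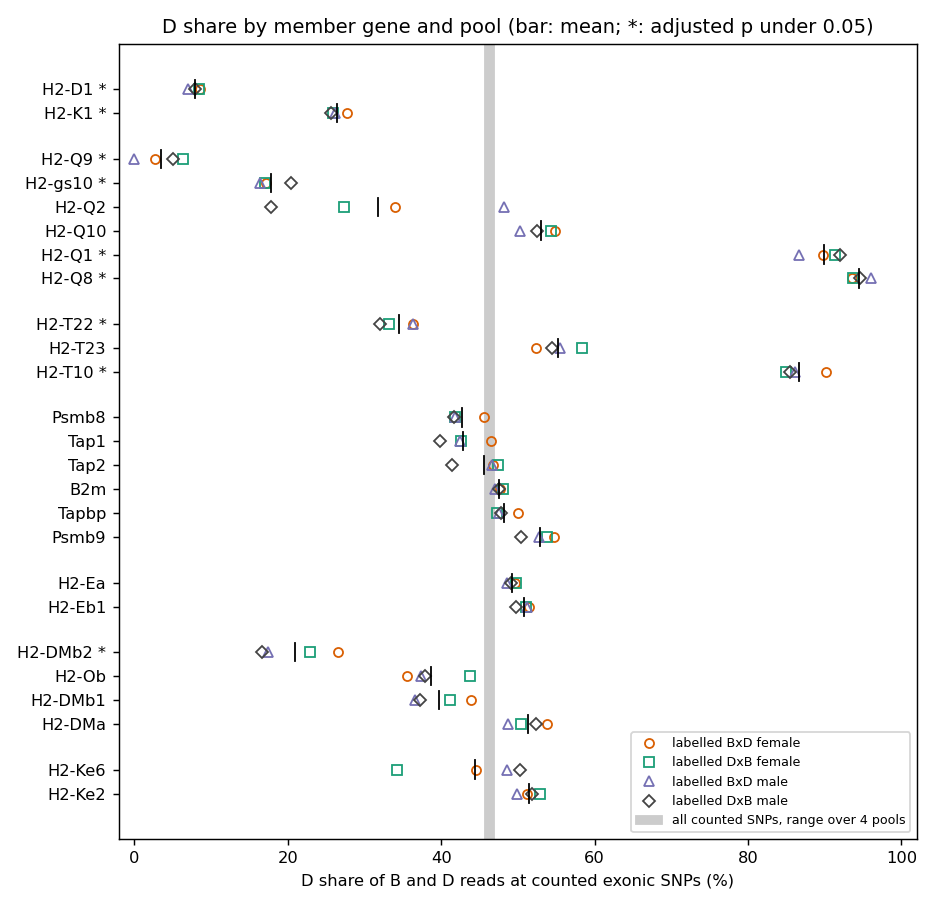
The D share of B and D reads at counted exonic SNPs (x axis, in %) is plotted for the 25 member genes with at least 100 counted reads, grouped by role, with 1 symbol per pool, a bar at the mean of the 4 pools and a grey band for all counted SNPs (45.7% to 46.9%). H2-D1 and H2-Q9 sit at the left edge and H2-Q8, H2-Q1 and H2-T10 at the right, while B2m, Tapbp, H2-Ea and H2-Eb1 lie near the band.

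The classical class I heavy chains took the most reads. At H2-K1 (chr17:34133120-34137220, minus strand, 29 counted SNPs) D gave 27.7%, 25.9%, 26.2% and 25.6% of the reads, from 202307 B and 72897 D reads in all. Every pool lay well below the D share of all counted SNPs. The log2 D to B ratio was -1.35 (SE 0.16, edgeR adjusted p = 8.56e-05), a B level 2.55-fold that of D. At H2-D1 (chr17:35400049-35404394, plus strand, 17 counted SNPs) D gave 8.49%, 8.39%, 7.03% and 7.86%, with 141802 B and 12196 D reads. Its ratio was -3.42 (SE 0.16, edgeR adjusted p = 2.23e-08), a 10.7-fold excess of B.

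These sums hide wide differences along each gene. In H2-K1, 25 SNPs were called with B higher and 1 with D higher. D gave under 1% of the reads at 12 of the 28 SNPs that had at least 10 reads and different listed bases, and 35% to 65% at 4. By exon, the D share was 30.8% ± 0.68 (SD, n = 4) in exon 2, 0.0634% ± 0.0519 in exon 3 and 4.61% ± 1.04 in exon 4. Exons 2 and 3 encode the domains that form the peptide groove and exon 4 the domain next to the membrane. In the last exon, which holds most of the 3' untranslated region, D gave 31.8% ± 0.96. Within exon 2, D gave 66.8% of 25026 reads at 34136862 and 0.0394% of 17748 reads at 34136720. All but 2 of the 29 counted SNPs of H2-K1 have a near-copy. The SNP without one in the last exon, at 34133295, had 6070 B and 6217 D reads (50.6% D), and the other, at 34137220 in the 5' untranslated region, had 424 B and 4 D reads with 4 other listed SNPs within 50 bp. Those 2 SNPs together gave a log2 ratio of 0.04 (SE 0.22, edgeR adjusted p = 0.954). With only SNPs of H2-K1 that have no listed SNP within 50 bp, it was -5.90 (SE 0.46, edgeR adjusted p = 1.3e-06).

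H2-D1 behaved in a like manner. The D share was 19.7% ± 1.61 in exon 2, 2.33% ± 0.28 in exon 3, 0 of 975 reads in exon 4 and 6.74% ± 0.63 in the last exon. Its most counted SNP, at 35400532 in exon 2 and shown above, had 30252 B and 5970 D reads (16.5% D, 95% Wilson interval 16.1% to 16.9%). At 35403660 in exon 7, with no other listed SNP within 50 bp, 12815 reads were B and 6 were D. The 1 counted SNP without a near-copy, at 35404394 in the 3' untranslated region, had 259 B and 189 D reads, or 42.2% D (log2 ratio -0.36, SE 0.25, edgeR adjusted p = 0.424). With only SNPs of H2-D1 that have no listed SNP within 50 bp, the ratio was -2.41 (SE 0.16, edgeR adjusted p = 2.64e-07).

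**Figure D2:**
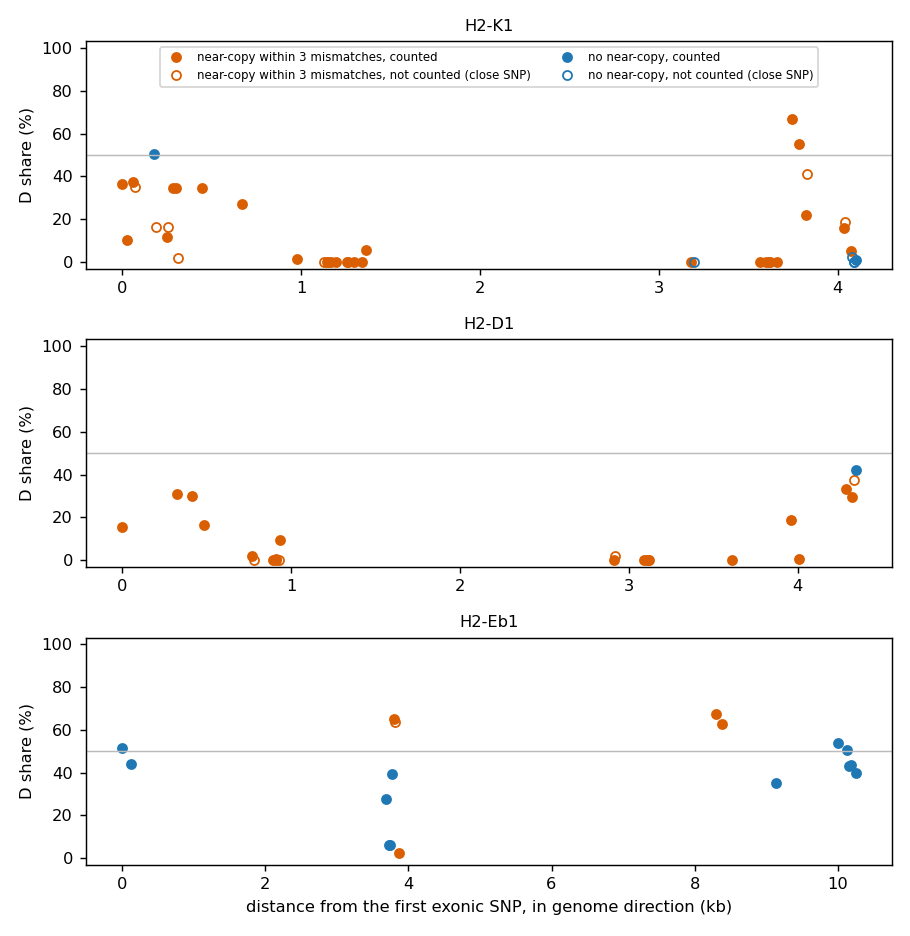
The D share over the 4 pools (y axis, in %) of each exonic SNP with at least 10 reads is plotted against its distance in kb from the first such SNP of H2-K1, H2-D1 and H2-Eb1, coloured by whether it has a near-copy, with open symbols for SNPs left out by the 18 bp filter. In H2-K1 and H2-D1 long runs of SNPs lie at 0%, and of the counted blue points without a near-copy, those at 50.6% and 42.2% stand above most others while 1 in H2-K1 lies at 0.935%.

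The Q group holds class I copies beside H2-D1. H2-Q8 (chr17:35531496-35532363) had D shares of 93.5%, 93.7%, 96.1% and 94.5% and a log2 ratio of 4.26 (SE 0.22, edgeR adjusted p = 5.9e-08). Its 8334 reads came mainly from the SNP at 35531939 shown above, with 92 B and 7589 D reads. At its neighbour 35531973, in the same exon, B gave 301 and D 285 reads, and at 35532040 B gave 35 reads and D none. With only SNPs that have no listed SNP within 50 bp, the ratio turned to -2.69 (SE 0.57, edgeR adjusted p = 0.00519). The SNPs that the files name H2-Q1 lie in the annotated H2-Q6. Their D shares were 89.8%, 91.3%, 86.7% and 92.0% and their ratio was 3.25 (SE 0.24, edgeR adjusted p = 1.23e-06), and again 1 SNP carried the sum, since 35562265 had 330 B and 3835 D reads while 35562139 and 35565298 had 37 and 11 and 76 and 9.

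In favour of B, the H2-Q9 SNP (35577025, in the annotated H2-Q7, a gene of the Qa-2 antigen) had 71, 44, 53 and 38 B reads and 2, 3, 0 and 2 D reads. Its log2 ratio was -4.64 (SE 0.43, edgeR adjusted p = 9.24e-06). The SNPs named H2-gs10, in the annotated H2-Q4, had D shares of 17.2%, 17.1%, 16.3% and 20.4% and a ratio of -2.11 (SE 0.23, edgeR adjusted p = 4.02e-05). The gene's most counted exonic SNP, the one shown above, had 1635 B and 3050 D reads and is 1 of the 4 counted for CR974466.14-2, which the files list first. With those SNPs counted for H2-gs10, an assignment made after seeing the data, its ratio was 0.10 (SE 0.17, edgeR adjusted p = 0.769) and the call was lost. When all exonic SNPs were used the ratio of H2-gs10 was 0.05 (SE 0.17, edgeR adjusted p = 0.898), and at its 1 counted SNP without a near-copy it was -0.28 (adjusted p = 0.378 in edgeR).

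H2-Q10, known as a secreted class I molecule of the liver, had D shares of 54.8%, 54.3%, 50.3% and 52.5% and was not called (log2 ratio 0.28, SE 0.21, edgeR adjusted p = 0.451; 0.30 and adjusted p = 0.0164 with the pool as a block). Of its reads, 3714 stand at a SNP whose listed bases are the same for both strains, where B and D counts are equal. Without that SNP the ratio was 1.32 (SE 0.56, edgeR adjusted p = 0.148), and at the 2 SNPs without a near-copy it was 2.61 (SE 0.66, edgeR adjusted p = 0.0166), from 41 B and 239 D reads. The most counted exonic SNP of H2-Q10 with different listed bases, at 35607506, was left out by the 18 bp filter. It has a near-copy and had 2004 B and 659 D reads (24.7% D). Over all exonic SNPs H2-Q10 had 4085 B and 3172 D reads. H2-Q2 had 88 B and 42 D reads and was not called (-0.96, SE 0.41, edgeR adjusted p = 0.151). Its ratio turned with the SNPs used, from -4.73 without near-copy SNPs to 3.02 at SNPs with no listed neighbour within 50 bp and 1.99 with intronic SNPs, all past the threshold, and part of the SNPs that the files give it lie outside the annotated H2-Q2.

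In the T group, H2-T10 and H2-T22 are close copies known as ligands of gamma delta T cells, and H2-T23 makes the Qa-1 molecule. H2-T10 had D shares of 90.1%, 84.9%, 86.1% and 85.5% (56 B and 376 D reads, log2 ratio 2.84, SE 0.19, edgeR adjusted p = 5.67e-07). Every D read was at 36256320, the SNP shown above, and its other 3 counted SNPs gave 25 reads, all B. At the SNPs without a listed neighbour within 50 bp the ratio was -5.62 (SE 0.98, edgeR adjusted p = 0.00343). H2-T22 ran the other way, with D shares of 36.3%, 33.2%, 36.4% and 32.0% and a ratio of -0.80 (SE 0.19, edgeR adjusted p = 0.0125). That call was lost without the pool labelled DxB female (edgeR adjusted p = 0.0712) or the pool labelled DxB male (edgeR adjusted p = 0.0899), and without SNPs at which 1 allele gave under 1% of the reads (-0.41, edgeR adjusted p = 0.33), where H2-T23 was called in its place (2.57). H2-T23 had D shares of 52.4%, 58.3%, 55.5% and 54.4% and was not called (0.41, SE 0.20, edgeR adjusted p = 0.216). With the block the ratio was 0.43 (edgeR adjusted p = 0.00501).

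The sum for H2-T23 joined exons of opposite sign. D gave 95.1% ± 0.64 (SD, n = 4) in exon 5, where 36167574 had 234 B and 5809 D reads. In exon 3 it gave 13.5% ± 0.25, where all 2848 reads at 36168704 were B. Counting error alone allows a D share of up to 0.105% there. At some SNPs of other genes with B reads only, the study sequenced D DNA and verified no listed D base. Member SNPs with B reads only were not checked in this way. All counted SNPs of H2-T10, H2-T22 and H2-T23 have a near-copy. In the M group, H2-M2 had 7 reads and H2-M5 had 4 at 1 counted SNP each, too few to detect a difference, and H2-M3 had 34 reads at its intronic SNP.

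The genes that supply and load class I peptides showed no called difference between B and D. B2m, the light chain, was the most read of them, with D shares of 47.6%, 48.0%, 47.0% and 47.5% and a log2 ratio of -0.02 (SE 0.12, edgeR adjusted p = 0.969). Its SNPs also lie in the overlapping gene Patl2, and the files do not give the strand of a read. Tapbp stood at 50.03%, 47.3%, 47.5% and 47.8% (0.02, SE 0.09, edgeR adjusted p = 0.924). Tap2 had D shares of 46.7%, 47.5%, 46.6% and 41.4% (-0.12, SE 0.15, edgeR adjusted p = 0.667). Tap1 was at 46.5%, 42.5%, 42.4% and 39.8% (-0.27, SE 0.13, edgeR adjusted p = 0.227). Of the proteasome subunits that interferon induces, Psmb8 had 45.6%, 41.8%, 41.8% and 41.7% (-0.29, SE 0.17, edgeR adjusted p = 0.33) and Psmb9 had 54.7%, 53.8%, 52.8% and 50.5% (0.30, SE 0.15, edgeR adjusted p = 0.258). The latter neighbours on chromosome 17 thus had D shares on different sides of all counted SNPs. The low share of Psmb8 came from 1 of its 2 counted SNPs, as the other had 50.9% D. With the block, Tap1 (adjusted p = 0.0358), Psmb8 (0.0155) and Psmb9 (0.00939) passed the threshold of edgeR's test at nearly the same ratios.

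Single SNPs of these 6 genes were mostly near equal. In B2m, 121978507 in exon 4 was called with B higher (3711 B and 2204 D reads, 37.3% D), and 121976855 in exon 2 stood at 50.3%. Psmb8 had 2 counted SNPs, and at 34336580 in exon 3 it had 524 B reads and 1 D read, while 34337742 in exon 5 had 1407 B and 1457 D reads. Without SNPs at which 1 allele gave under 1% of the reads, its ratio was 0.13 (SE 0.16, edgeR adjusted p = 0.783). In Tapbp, 12 reads at 34065240 were all B and the other 4 SNPs had D shares of 44.5% to 50.5%. All 9 counted SNPs of Psmb9, all 7 of Tap1 and all 11 of Tap2 had D shares between 35% and 65%, with 1 SNP of Tap2 called in each direction.

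Of the class II chains, the SNPs that the files name H2-Ea gave D shares of 49.6%, 49.8%, 48.5% and 49.1% and were not called (log2 ratio 0.08, SE 0.16, edgeR adjusted p = 0.789; 0.09 and adjusted p = 0.0228 with the block). By position they fall into 2 annotated genes. At the annotated H2-Aa, the A alpha chain (chr17:34419765-34424734, minus strand, 19 counted SNPs), D shares were 46.2%, 46.6%, 45.1% and 46.0%. At the annotated H2-Ea-ps, the E alpha chain gene (chr17:34479112-34481566, minus strand, 5 counted SNPs), there were 2332, 1947, 1914 and 2028 D reads and 0, 5, 2 and 2 B reads. All 4 pools were thus nearly D only at the latter, with a B share of 0.109% (95% Wilson interval 0.0575% to 0.208%). Fitted as separate genes, a split chosen after the positions and counts were seen, H2-Aa had a ratio of -0.10 (SE 0.16, edgeR adjusted p = 0.74) and H2-Ea-ps of 9.89 (SE 0.35, edgeR adjusted p = 2.85e-09). The 9 intronic SNPs of H2-Ea-ps had 39 B and 2633 D reads. None of the 34 exonic SNPs named H2-Ea has a near-copy, and the H2-Ea-ps SNPs have no other listed SNP within 50 bp. The most counted of them, at 34480760, lies in this window.
H2-Ea-ps, chr17:34480745-34480774, G16C: ccaggtgacattgacGactggaggggagaa

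**Figure D3:**
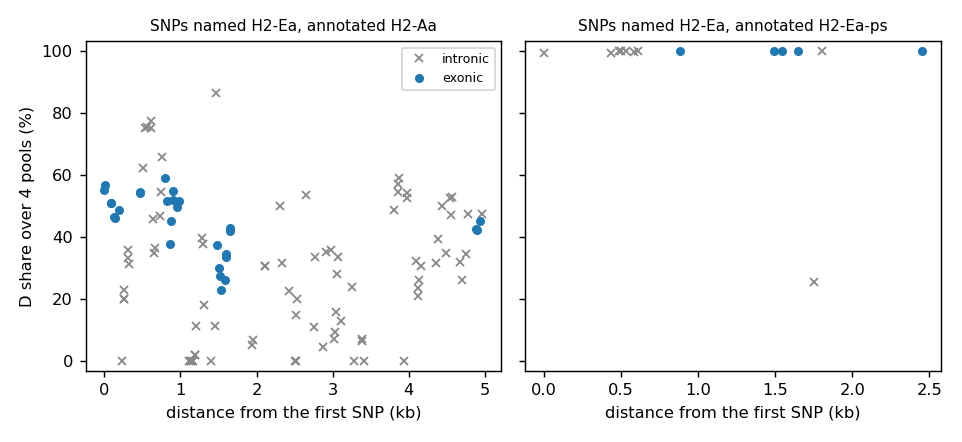
The D share over the 4 pools (y axis, in %) of SNPs named H2-Ea with at least 10 reads is plotted against the distance in kb from the first SNP, at the annotated H2-Aa (left) and H2-Ea-ps (right), with crosses for intronic and dots for exonic SNPs. Exonic SNPs of H2-Aa spread around 46%, and those of H2-Ea-ps all lie at or above 99.7%.

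Exon 2 of H2-Aa, which encodes the peptide binding domain of the A alpha chain, had a lower D share than the rest of the gene. D gave 33.0% ± 0.75 (SD, n = 4) of its reads, 50.6% ± 2.04 in exon 3 and 49.5% ± 0.55 in exon 5, and the values of exon 2 overlapped neither. All 5 counted SNPs of exon 2 are non-synonymous and have 2 to 5 other listed SNPs within 50 bp. The lowest was 34421292, with 3131 B and 936 D reads. There, and at 34421250 and 34421272, a 50-base window with the listed D bases had 4 mismatches to unmasked mm9. So did a window at 34420628 in exon 3 (37.7% D). The aligner allowed 3, but per the study's methods it mapped to mm9 with D variants masked. H2-Eb1, the E beta chain, had D shares of 51.4%, 51.0%, 51.1% and 49.8% over 15 SNPs and was not called (0.17, SE 0.14, edgeR adjusted p = 0.485). With the block the ratio was 0.18 (edgeR adjusted p = 0.00237). By exon, the D share of H2-Eb1 was 46.2% ± 2.96 in exon 1, 34.8% ± 1 in exon 2 and 66.0% ± 1.08 in exon 3. It was 35.1% ± 1.37 in exon 4 and 49.9% ± 0.27 in the last exon, so that the near equal sum joined unequal exons. The 1 counted SNP of exon 4, at 34451995, has no near-copy and no listed SNP within 50 bp. Both counted SNPs of exon 3 and 2 of the 5 in exon 2 have a near-copy. Without near-copy SNPs the ratio of H2-Eb1 was -0.16 (SE 0.14, edgeR adjusted p = 0.532). H2-Eb2 had 15 B reads and 1 D read.

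Among the class II loading genes, which exchange peptides on class II molecules (H2-DM) or restrain that exchange (H2-O), 1 of 5 was called. H2-DMb2 had 61, 27, 85 and 45 B reads and 22, 8, 18 and 9 D reads, a log2 ratio of -1.82 (SE 0.38, edgeR adjusted p = 0.00531). All of its counted SNPs have a near-copy, and its 26 intronic SNPs had 724 B and 797 D reads. H2-DMb1, its neighbour and copy, had D shares of 43.9%, 41.2%, 36.6% and 37.2% (-0.50, SE 0.19, edgeR adjusted p = 0.114; -0.47 and adjusted p = 0.0125 with the block), and at the 4 SNPs without a near-copy its ratio was 0.28 (SE 0.18, edgeR adjusted p = 0.37). At SNPs of H2-DMb1 with no listed SNP within 50 bp the ratio was -1.28 (SE 0.23, edgeR adjusted p = 0.00145). H2-DMa stood at 53.8%, 50.3%, 48.7% and 52.4% (0.21, SE 0.15, edgeR adjusted p = 0.425). H2-Ob, with 265 reads, had D shares of 35.5%, 43.8%, 37.3% and 37.9% (-0.54, SE 0.19, edgeR adjusted p = 0.0808; adjusted p = 0.0397 with the block), and H2-Oa had 30 reads.

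H2-Ke2, a prefoldin subunit, and H2-Ke6, a steroid dehydrogenase, carry H2 names without being MHC molecules and neither was called. Their D shares were 51.2%, 52.9%, 49.8% and 51.8% for H2-Ke2 (0.21, SE 0.13, edgeR adjusted p = 0.359; adjusted p = 0.0396 with the block) and 44.6%, 34.2%, 48.5% and 50.3% for H2-Ke6 (-0.20, SE 0.22, edgeR adjusted p = 0.627).

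Tested 1 by 1, 99 of 224 exonic member SNPs were called by edgeR (44.2%), 79 with B and 20 with D higher, where 12.1% of 44193 SNPs over all genes were called, 8.51% with B and 3.63% with D higher. Of the 15 member genes with at least 2 called SNPs, 10 (66.7%) had SNPs called in both directions. Among all other genes 219 of 958 (22.9%) did. The windows below hold the most counted SNP of each direction in those 10 genes, where it was not shown above, with the direction in front.
H2-K1, B higher, chr17:34133163-34133192, A16G and T27C: tggagctgacaggctAcagatgtcccTcag
H2-K1, D higher, chr17:34136847-34136876, C16T: gcacgaactccgtgtCgtccacgtagccga
H2-Q1, B higher, chr17:35565283-35565312, A16C: ttggagctgtggtggAttttgtgatgaaga
H2-Q2, B higher, chr17:35480313-35480342, A16G and C19A: aggagacgctgctgcAcaCaggtgcagggg
H2-Q2, D higher, chr17:35481698-35481727, G16C: agatcccccaaaggcGcatgtgacccatca
H2-Q8, B higher, chr17:35532025-35532054, C16G: gtgcaggggccgcggCtggggctcagtcct
H2-T10, B higher, chr17:36257263-36257292, G16T: ttttcgctcagggtgGggagatcctcgcta
H2-T23, B higher, chr17:36168689-36168718, G16A: tgacttgtgcttagaGatctgtgaggctat
H2-T23, D higher, chr17:36167559-36167588, T16C: cagctccaaggatgaTcacagctccaagga
Tap2, B higher, chr17:34352972-34353001, G16A: gcatgaccagctcagGgacggccaggatgt
Tap2, D higher, chr17:34342500-34342529, C16G: gagcacctcagtagtCcgagtggcttctgc
H2-Ea (at H2-Aa), B higher, chr17:34420613-34420642, A16G: gcttgtggaaggaatAgtcacggttgacga
H2-Ea (at H2-Aa), D higher, chr17:34420542-34420571, T16C: ctccaggccccagtgTtccaccttgcagtc
H2-Eb1, B higher, chr17:34446706-34446735, T16A: aacagccagccggagTtcctggagcaaaag
H2-Eb1, D higher, chr17:34451134-34451163, A16G: gtaccccacaaagacAcagcccctggaaca
H2-DMb1, B higher, chr17:34296917-34296946, A16C: tcctgaggattccttAatgccccaacatct
H2-DMb1, D higher, chr17:34296988-34297017, A16G: ggtccccttcctgaaAtaaatattagtagt

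The b and d haplotypes differ at many sites, and counted member SNPs were more crowded than others. Of them, 19.03% had 3 or more other listed SNPs within 50 bp, the read length, against 3.47% of the counted SNPs of all other genes. Of the counted member SNPs, 37.2% are non-synonymous, against 15.7% elsewhere. With 0, 1, 2 and 3 or more listed neighbours, member SNPs with at least 10 reads had median D shares of 44.1%, 44.4%, 42.2% and 21.8%. Over all other genes the medians were 48.3%, 47.5%, 46.7% and 40.3%, so the D share was lowest in the most crowded class in both. SNPs within 50 bp can share reads and are not independent.

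The D share also moved with near-copies, which 148 of the 298 exonic member SNPs on chromosome 17 have. Among counted SNPs with at least 10 reads and different bases, the median D share was 10.6% over the 91 with a near-copy and 46.9% over the 99 without one, where 47.9% was the median of all other genes. D gave under 1% of the reads at 32 of the 91 and at 5 of the 99, and over 90% at 5 and 6. It gave under 1% at 4.80% and over 90% at 0.674% of the SNPs of all other genes. At 24 of the 41 SNPs where a window carrying the listed D bases matched another place with fewer mismatches than its own, D gave under 1% of the reads. At 18 SNPs such a window had more than 3 mismatches to unmasked mm9 at its own place. Their median D share was 3.88%, and D gave under 1% of the reads at 8. Of the counted chromosome 17 SNPs, 68.5% of 111 with a near-copy were called, 65 with B and 11 with D higher, and 19.6% of 112 without one, 13 with B and 9 with D higher. Those 9 include the 5 of H2-Ea-ps. With 0, 1, 2 and 3 or more neighbours the median D share was 13.1%, 26.5%, 35.7% and 2.60% with a near-copy and 49.3%, 50.3%, 43.1% and 39.0% without, so it was lowest with 3 or more neighbours in both classes but did not fall steadily with a near-copy. The part of near-copies, of crowding and of mismatches to mm9 in the strain differences was not tested. Copies that only the d haplotype carries were not analysed here.

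**Figure D4:**
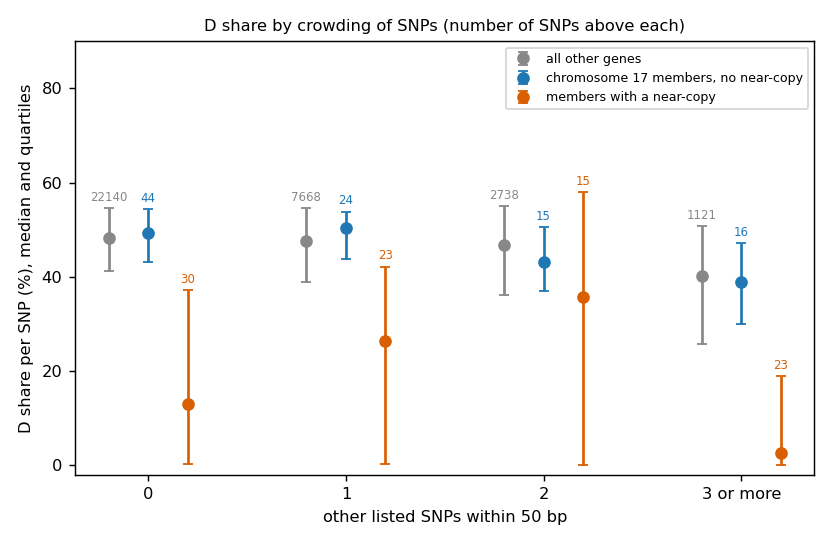
The D share per SNP (y axis, in %, median with quartiles over SNPs with at least 10 reads) is plotted by the number of other listed SNPs within 50 bp for all other genes, chromosome 17 members without a near-copy and members with one, with the number of SNPs above each. The first 2 classes fall from medians near 48% and 49% to 40.3% and 39.0%, and members with a near-copy lie below them in each class.

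Leaving out near-copy SNPs moved H2-Q2 (-0.96 to -4.73) and H2-Q10 (0.28 to 2.61) away from 0 and the called genes that kept a SNP towards it. The log2 D to B ratio of H2-D1 went from -3.42 to -0.36, that of H2-K1 from -1.35 to 0.04 and that of H2-gs10 from -2.11 to -0.28, and the other 6 called genes had no SNP left. The genes B2m, Tapbp, Tap2, Psmb8, Psmb9, H2-Ea, H2-DMa, H2-Ke2, H2-Ke6 and H2-Ob lost no counted SNP and Tap1 lost 1, so their ratios had little room to move. The B2m SNP windows were not searched for copies.

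**Figure D5:**
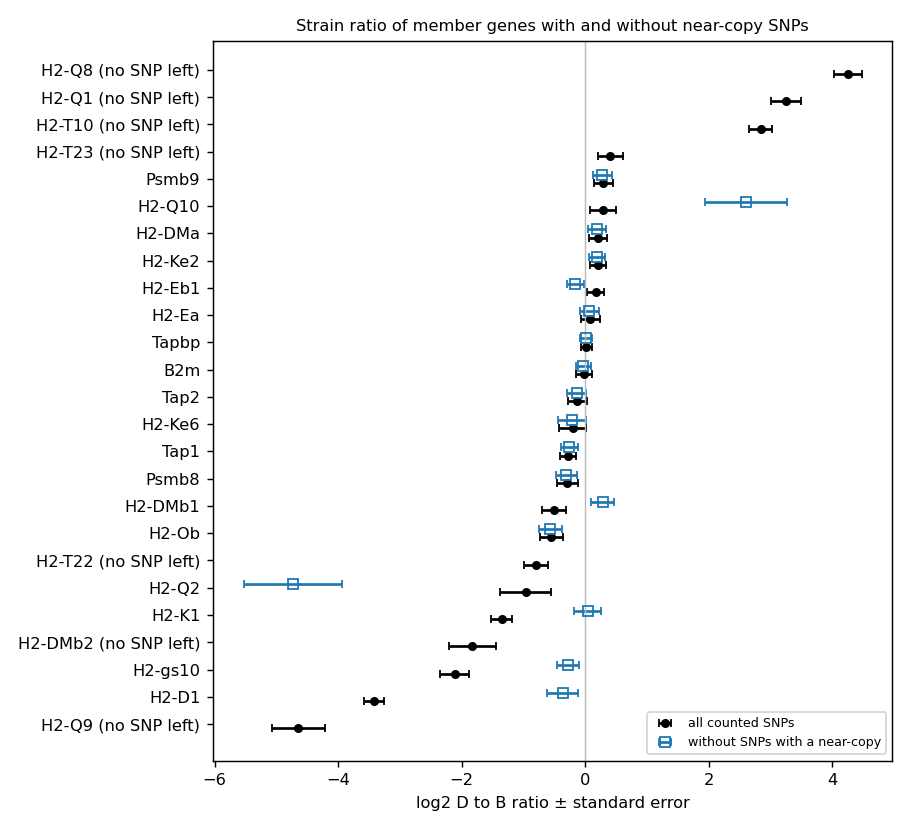
The log2 D to B ratio with its standard error (x axis) is plotted for the 25 member genes with at least 100 counted reads, with all counted SNPs (filled) and without SNPs that have a near-copy (open squares). H2-D1, H2-K1 and H2-gs10 move from -3.42, -1.35 and -2.11 to near 0, H2-Q10 and H2-Q2 move away from it, and genes with no SNP left have 1 point only.

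Reads on intronic SNPs gave a second view of the same genes, without the 18 bp filter. D gave 25.4% ± 3.03 (SD, n = 4) of the intronic reads of H2-D1 and 6.81% ± 0.63 of its exonic reads. In H2-K1 the shares were 41.7% ± 2.18 and 24.8% ± 0.87. H2-T23 had 18.5% ± 4.16 and 55.2% ± 2.45, H2-Q2 67.4% ± 5.25 and 25.4% ± 12.2, and Psmb9 24.3% ± 4.10 and 52.8% ± 1.74. In each of these 5 genes, chosen after their values were seen, the exonic and intronic shares lay apart by more than their spread over the pools, in both directions.

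Among 92 other genes with counted SNPs between the first and last member SNPs of chromosome 17, leaving out the 3 that took member SNPs, 16 were called (17.4%), 14 with B and 2 with D higher. This share is near that of all genes, of which 17.7% were called, 12.9% with B and 4.84% with D higher. The most read of the called genes were Rmcs2 (37.0% D), C4a (36.5% D), Vps52 (38.7% D), Bat1a (25.5% D) and Cdsn (1.71% D). Of 17 tested non-member genes of an antigen presentation list, 7 were called (41.2%, against 17.7% of all genes). These had B higher in 5 and D higher in 2. They included Ctsl, a lysosomal protease (63.2% D, log2 ratio 0.91, SE 0.15), Ciita, the class II transactivator (60.7% D, 0.76, SE 0.18), Calr, calreticulin of the loading complex (34.98% D, -0.76, SE 0.14), Hfe (32.5% D, -0.95, SE 0.25), the lipid presenting Cd1d1 (0.471% D of 4038 reads, -7.58, SE 0.32) and Rfxap (35 B reads and no D read).

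By parent of origin, no member gene was called in any fit. The fits by parent held no strain term, so a gene's strain difference added to its spread. For members with a large strain difference, such as H2-D1 and H2-Q8, they could hardly detect a parental one. With label identities 0 of 29 passed edgeR's adjusted threshold (0% of all genes) and 0 had an unadjusted p under 0.05, and with the file-name identities of the 2 pools the counts were 0 (0.0501% of all genes) and 0. DESeq2 also gave 0 and 0. For the difference of the strain ratio between the sexes the counts were 0 and 0 with label identities (0.1% of all genes called), 0 and 0 with file-name identities (0% of all genes) and 0 and 0 by DESeq2. With the block, 3 members had an unadjusted p under 0.05 (H2-D1, H2-DMb1 and H2-Q8), where 2.88% of all genes did, and none passed adjustment. Each combination of cross and sex has 1 pool.

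Levels of the members also differed between pools. Summed over both alleles, the classical class I genes took 31276, 21696, 30338 and 24204 reads per 1000000 counted reads. The Q group took 1447, 935.2, 1511 and 1001 and the T group 1108, 697.3, 990.2 and 707, so that all 3 were higher in the pools labelled BxD female and BxD male, which by file name are the females. The class II chains followed another order, with 14353, 13100, 13002 and 17005. The levels were not tested, since with 2 pools on each side the smallest p of an exact permutation test is 0.333. In pooled tissue more cells of a type and more RNA per cell cannot be told apart. The macrophage marker Cd68 took 427.5, 436.3, 233.9 and 492.3 reads per 1000000, and the leukocyte marker Nkg7 took 9.87, 5.05, 5.35 and 3.88. Of 15 leukocyte markers 5 had counted SNPs, summing to 241.2 to 498 reads per 1000000, with Cd3e, Cd3g and Cd8a at most 8.7 in any pool, and their part in the member levels was not tested. The adipocyte genes Lpl, Cidec and Lep together took 42767 to 57269, and Lcn5 and Defb1, the 2 genes of a gonad list with counts, at most 5.07.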

How the data were processed

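RNA pools of gonadal adipose tissue were sequenced by the authors as 50 bp reads, and per their methods mates were mapped singly to mm9 with DBA/2J variants masked (1 passage of the supplement reads otherwise), by mrsFAST with at most 3 mismatches and by TopHat, keeping uniquely mapped reads. CASAVA and TopHat 1 are named in the submitters' processing notes. The deposited values are whole-number counts of B and D reads per SNP and gene, not normalized. A read over several SNPs counts at each, strand is not given, and overlapping genes cannot be told apart.

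Exonic SNPs were summed per gene after SNPs within 18 bp of the last one kept in an exon were dropped, and a SNP listed for several genes was counted once, for the first listed, and counting it for the member was an alternative chosen after seeing the data. B and D libraries of the 4 pools were compared with edgeR 4.0.16 in R 4.3.3 (quasi-likelihood test, TMM factors, Benjamini-Hochberg adjustment over all genes or SNPs), and the standard error is the log2 ratio divided by the root of F. On simulated counts with 200 changed genes this fit (strain, 7988 genes) recovered 98% of changes of log2 size 1 and 100% of size 2. The changed genes were drawn from the better covered ones, and the libraries were simulated unpaired with a fixed spread. Recovery for members with few reads was therefore not tested. The alleles of a pool come from the same animals, and their deviations from the group means correlated at 0.636, 0.204, 0.630 and 0.131 over 5308 genes, so the libraries are paired. Values with the pool as a replicate block are given where they change a call. Groups follow the labels. File-name identities of 2 pools were an alternative for parent and sex. The p-values measure the spread between 4 pools. Near-copies were sought with pysam 0.24.0 by 50-base windows at 3 offsets per SNP over 5.56 Mb around the chromosome 17 members. Annotated names and exons are from GENCODE for mm9. Wilson intervals and the limit of 3 counts for a share of 0 cover counting error only. All members with at least 100 counted reads are named with their values, others where 5 or fewer. The members, lists and tests were chosen with earlier results of these data known. Alternatives were DESeq2 1.42.0, other size factors, count and SNP filters, the block and leaving out each pool.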

Additional observations from a re-analysis of the deposited data

Results flagged for a closer look

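In 25 named member genes the pool farthest from the others was compared with Dixon's 95% critical value for 4 values, which chance passes in about 1 of 20 groups. It was passed by 2 genes. The D share of Psmb8 was 45.6% in the pool labelled BxD female and 41.7% to 41.8% in the other 3, a gap of 0.968 of the whole range. The D share of Tap2 was 41.4% in the pool labelled DxB male and 46.6% to 47.5% in the others, a gap of 0.855 of the range. Neither gene was called between B and D without the replicate block, and with it Psmb8 was (edgeR adjusted p = 0.0155) and Tap2 was not.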

How the results depend on the processing

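The number of member genes called between B and D was 9 and ranged from 8 to 9 when 1 pool was left out. It was 2 without SNPs that have a near-copy, where 8 genes had no SNP left, and 19 with the replicate block. Over the 25 named genes and all alternatives, 347 values kept direction and side of the threshold, 18 newly passed it, 5 no longer did and 23 turned. Without near-copy SNPs the log2 D to B ratio turned to 0.28 for H2-DMb1, -0.16 for H2-Eb1 and 0.041 for H2-K1. At SNPs with no listed SNP within 50 bp it turned to 0.065 for B2m, -0.10 for H2-Q10, 3.02 for H2-Q2, -2.69 for H2-Q8, -5.62 for H2-T10, -8.02 for H2-T23, 0.14 for Tap2 and -0.0040 for Tapbp. With intronic SNPs it was 0.0080 for B2m and 1.99 for H2-Q2, and with all exonic SNPs -0.24 for H2-Q10 and 0.053 for H2-gs10. With SNPs listed for several genes counted for the member, chosen after seeing the data, it was 0.10 for H2-gs10, and the count stayed at 9 of 30 since H2-T3 (-3.13) was called in its place. With 1 library size per pool it was -0.043 for H2-Ea and -0.10 for Tapbp. Without SNPs where 1 allele gave under 1% of the reads it was -0.15 for H2-Ea, 0.13 for Psmb8 and -0.019 for Tapbp. Leaving out 1 pool gave -0.35 to 0.0090 for H2-Ke6 and -0.014 to 0.035 for Tapbp. The cause of these turns was not tested. Calls of single member SNPs numbered 99, and 88 to 92 without 1 pool. Depth limits H2-M2, H2-M5, H2-Oa and H2-Eb2, and the number of pools limits the tests of parent and sex.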
